A study of Homo sapiens with 4 samples.

Results

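The CCAAT/enhancer binding protein (C/EBP) genes were examined in OCI-AML3 cells with knockout of mutant NPM1 (mtNPM1 KO). The family was taken as CEBPA, CEBPB, CEBPD, CEBPE, CEBPG and CEBPZ, found by Ensembl identifier in the table of raw counts. All 6 genes were present among the 58037 genes of the table, and all 6 were among the 15718 genes that passed the filter on low counts. OCI-AML3 is an established human AML cell line that carries heterozygous NPM1 and DNMT3A mutations and mutant NRAS. RNA was sequenced 3 days after transfection with a negative control guide (sgRNA Ctrl, called sgNeg in the labels) or with a guide that cuts the mutant allele (sgNPM1A). Both conditions share the cell line, its mutations, the transfection and the culture, and each has 2 libraries. The paper describes no selection of clones for these transfected cells, and the share of edited cells is not given. A library may therefore average over edited and unedited cells.

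C/EBP proteins bind DNA as dimers through a basic leucine zipper (bZIP), and the members can pair with each other. In the myeloid lineage CEBPA is known for granulocyte commitment and cooperates with PU.1 at genes of primary granules and cytokine receptors. CEBPE acts later, in the formation of secondary granules, and CEBPB is known for emergency granulopoiesis, for monocytes and macrophages, and for inflammatory genes. CEBPD is an acute-phase member that responds to cytokines. CEBPG lacks the activation domains of the others and acts through its partners, among them ATF4. CEBPZ shares the name and the CCAAT box by history, but it has no bZIP and works in ribosome assembly, and it was therefore kept out of every sum over the family.

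The stretches before the annotated starts of CEBPB and CEBPE, which were called, of CEBPG, which separated between the conditions without a call, and of CEBPA for contrast, are shown here. They are RefSeq sequences on GRCh38.p14, read 5′ to 3′ on the strand of the gene, and each ends at the base before the start. CEBPB lies at chr20:50190583-50192690 (plus strand), and its 250 bases are chr20:50190333-50190582. CEBPE lies at chr14:23117306-23119255 (minus strand), and its 250 bases are chr14:23119256-23119505. CEBPG lies at chr19:33373709-33382686 (plus strand), and its 250 bases are chr19:33373459-33373708. CEBPA lies at chr19:33299934-33302534 (minus strand), and its 250 bases are chr19:33302535-33302784. Capitals mark matches to the CCAAT box on either strand (CCAAT, or ATTGG when read on the other strand).
CEBPB: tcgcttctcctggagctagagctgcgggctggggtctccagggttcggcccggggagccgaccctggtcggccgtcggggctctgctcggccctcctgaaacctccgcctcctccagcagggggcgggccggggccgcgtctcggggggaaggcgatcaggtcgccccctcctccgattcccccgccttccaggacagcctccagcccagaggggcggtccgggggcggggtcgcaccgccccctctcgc
CEBPE: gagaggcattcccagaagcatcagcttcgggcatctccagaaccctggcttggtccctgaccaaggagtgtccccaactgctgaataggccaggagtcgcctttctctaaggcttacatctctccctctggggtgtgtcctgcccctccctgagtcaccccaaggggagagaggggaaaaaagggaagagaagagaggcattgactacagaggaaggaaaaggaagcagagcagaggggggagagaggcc
CEBPG: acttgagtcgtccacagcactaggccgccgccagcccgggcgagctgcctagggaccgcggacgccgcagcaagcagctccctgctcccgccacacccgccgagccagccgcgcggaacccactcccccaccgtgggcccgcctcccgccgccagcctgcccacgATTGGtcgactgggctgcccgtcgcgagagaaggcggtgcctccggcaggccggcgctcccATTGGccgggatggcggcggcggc
CEBPA: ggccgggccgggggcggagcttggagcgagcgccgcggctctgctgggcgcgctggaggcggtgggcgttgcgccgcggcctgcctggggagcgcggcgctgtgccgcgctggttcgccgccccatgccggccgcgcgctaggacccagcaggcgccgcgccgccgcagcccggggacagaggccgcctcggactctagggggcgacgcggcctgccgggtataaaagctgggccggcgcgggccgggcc
The GC content of these windows was 75.6% for CEBPB, 57.2% for CEBPE, 76.0% for CEBPG and 81.2% for CEBPA. Only the CEBPG window among these 4 held a match, with CCAAT boxes 85 and 24 bases before the start. Across 35116 promoters in the same RefSeq table, 32% held a CCAAT box in a window of this length. The C/EBP site TTGCNNAA was in none of the 4 windows and in 9.05% of all promoters.

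CEBPG has a further annotated start, and the window before it held the amino acid response element TGATGNAA, the kind of site that ATF4 and C/EBP dimers are known to bind. The match lies 42 bases before that start and is in capitals in the 28 bases of chr19:33374061-33374088 (plus strand), shown because CEBPG is the usual partner of ATF4.
CEBPG element: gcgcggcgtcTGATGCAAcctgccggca
The same letters were found in 3.14% of all promoters. CEBPB also has a further start, with a CCAAT box 245 bases before it. CEBPZ (chr2:37201612-37231596, minus strand) had no match to any of these letters before its start. The stretch before the start of CEBPD was not among those examined.

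The targeted gene was examined first. NPM1 had 1319 and 1385 CPM (TMM-normalized counts, scaled to the size of the library) in the sgRNA Ctrl libraries and 1189 and 1132 CPM in the sgNPM1A libraries. These counts cover the wild-type and the mutant allele together, and the log2 fold-change was -0.22 ± 0.07 (SE, n = 2 and 2, adjusted p = 0.0360), below the fold threshold used for calls (0.32 on the log2 scale). With limma on quantile-normalized values it was -0.42 (adjusted p = 0.00109), past the threshold. With DESeq2 it was -0.22 (adjusted p = 0.0288), and in edgeR with replicate number as a block -0.22 (adjusted p = 0.156). Leaving out each library in turn gave log2 fold-changes from -0.26 to -0.18. Total counts ranged from 25069484 to 28276391 per library, so that 3 counts, taken as the floor, were between 0.108 and 0.118 CPM. The summed level of 6 myeloid blast markers was 583 to 585 CPM in sgRNA Ctrl and 606 to 624 CPM in sgNPM1A, a sum over members that moved in opposite directions. HOXA9 (log2 fold-change -1.69 ± 0.09, adjusted p = 3.21e-07) and MEIS1 (-2.46 ± 0.16, adjusted p = 1.13e-06) were called lower, and ANPEP (0.49 ± 0.07, adjusted p = 0.000528) and FUT4 (0.69 ± 0.07, adjusted p = 4.88e-05) were called higher. Of 4 lymphoid markers 3 were at 0 in every library, 3 erythroid markers summed to 0.116 CPM at most, and 3 stromal or epithelial markers, of which EPCAM was at 0, summed to 27.6 to 28.8 CPM in sgRNA Ctrl and 9.40 to 13.1 CPM in sgNPM1A. The latter was COL1A2 almost alone, and its part in the results was not tested. Whether a lower or higher level reflects a different number of cells of a type or a different amount of RNA per cell cannot be told apart in bulk RNA.

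With mtNPM1 KO, CEBPB rose by more than 2-fold, while CEBPA and CEBPD, the most abundant members, did not pass the test. CEBPE was also called higher, from 6 and 4 counts to 15 and 17, but its call was lost with DESeq2 and without any of the 4 libraries. A gene was called at an adjusted p under 0.05 in edgeR's quasi-likelihood test and a log2 fold-change of at least 0.32 in either direction. By this rule 2 of the 6 genes were called, beside 20.8% of all tested genes, and both were higher, beside 10.5% of all tested genes called higher and 10.3% called lower. CEBPE entered the test only through the libraries where it was high and could only be called as a rise, and 1 member was called with DESeq2 or when any 1 library was left out. None was called lower, with 0 lower at an unadjusted p under 0.05 and 0 called lower by DESeq2 or limma. The conditions did not overlap for CEBPB, CEBPE and CEBPG, and such a separation was found for 63.1% of all tested genes, with sgNPM1A higher in 31.4%. The median log2 fold-change of the 6 genes was 0.14, and that of all tested genes was 0.00. The median of the 6 genes includes CEBPE, which entered only through the libraries where it was high. No shift of the family was therefore read from it.

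CEBPB, the member tied to inflammation and monocytes, had 1643 and 2044 counts in the sgRNA Ctrl libraries and 4545 and 4372 counts in the sgNPM1A libraries. Its level was 64.6 and 78.9 CPM in sgRNA Ctrl and 163 and 157 CPM in sgNPM1A. Both sgNPM1A libraries were above both controls, and the lower sgNPM1A library was still about 2 times the higher control. The mean went from 71.8 ± 10.1 CPM to 160.3 ± 3.96 CPM (SD, n = 2 each). The log2 fold-change was 1.16 ± 0.09 (SE), with a 95% interval from 0.96 to 1.36, or 2.23-fold (1.95 to 2.56), and the adjusted p was 4.36e-06 over all tested genes. This placed CEBPB at rank 451 of 15718 by the size of the rise. Leaving out each library in turn gave log2 fold-changes from 1.02 to 1.31.

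CEBPE, the factor of late granulocyte maturation, was close to the floor. Its counts were 6 and 4 in sgRNA Ctrl and 15 and 17 in sgNPM1A, which are 0.236 and 0.154 CPM against 0.538 and 0.612 CPM. The sgNPM1A libraries were both higher, and the gene passed the filter on low counts only through them, so that a called CEBPE had to be a rise. The log2 fold-change was 1.54 ± 0.48 (SE, 95% interval 0.49 to 2.59), or 2.91-fold (1.40 to 6.03), with an adjusted p of 0.0354. The call was lost with DESeq2 (adjusted p = 0.234) and without any of the 4 libraries (adjusted p from 0.0720 to 0.149), with log2 fold-changes from 1.27 to 1.87. By level per length CEBPE stood at the percentile 9.05 of the tested genes.

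CEBPG, the partner that works through other bZIP proteins, had 78.0 and 81.5 CPM in sgRNA Ctrl and 93.4 and 94.4 CPM in sgNPM1A. The groups did not overlap, and within each the libraries lay close together. The mean was 79.8 ± 2.50 CPM against 93.9 ± 0.688 CPM (SD, n = 2 each). The log2 fold-change of 0.23 ± 0.07 (SE, 95% interval 0.08 to 0.39) had an adjusted p of 0.0278, but at 1.18-fold it was below the fold threshold and was not called. The adjusted p was 0.0547 with DESeq2 and 0.0593 with scaling by library size only, and from 0.0190 to 0.252 when each library was left out.

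CEBPA, the granulocyte commitment factor, had 7117 and 6994 counts in sgRNA Ctrl and 7802 and 7918 in sgNPM1A. After TMM normalization these were 279.98 and 270.05 CPM against 279.91 and 285.17 CPM, and the groups overlapped. The log2 fold-change was 0.04 ± 0.06 (SE, 95% interval -0.10 to 0.18, adjusted p = 0.699), an interval from 0.933-fold to 1.13-fold. These bounds belong to this fit with 2 libraries per condition, and with the replicate block the SE was larger, at 0.10. A CEBPA change beyond these bounds at 3 days is therefore not excluded. With scaling by library size only the estimate was -0.0016, where the median of all tested genes moved by as much, to -0.04.

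CEBPD, the acute-phase member on chromosome 8, was the most abundant of the 6 genes. It had 361 and 437 CPM in sgRNA Ctrl and 384 and 363 CPM in sgNPM1A, so the controls differed from each other by more than the sgNPM1A libraries and enclosed them. The log2 fold-change was -0.10 ± 0.09 (SE, 95% interval -0.29 to 0.10, adjusted p = 0.476). The value rested on the control libraries, being -0.23 without replicate 1 of sgRNA Ctrl (adjusted p = 0.0325, below the fold threshold) and 0.05 without replicate 2 (adjusted p = 0.593).

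CEBPZ, the ribosome assembly factor, had 55.2 and 45.0 CPM in sgRNA Ctrl and 45.2 and 49.3 CPM in sgNPM1A, with overlapping groups. The log2 fold-change was -0.08 ± 0.10 (SE, 95% interval -0.31 to 0.14, adjusted p = 0.588), and without replicate 1 of sgRNA Ctrl it was 0.07.

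**Figure D1:**
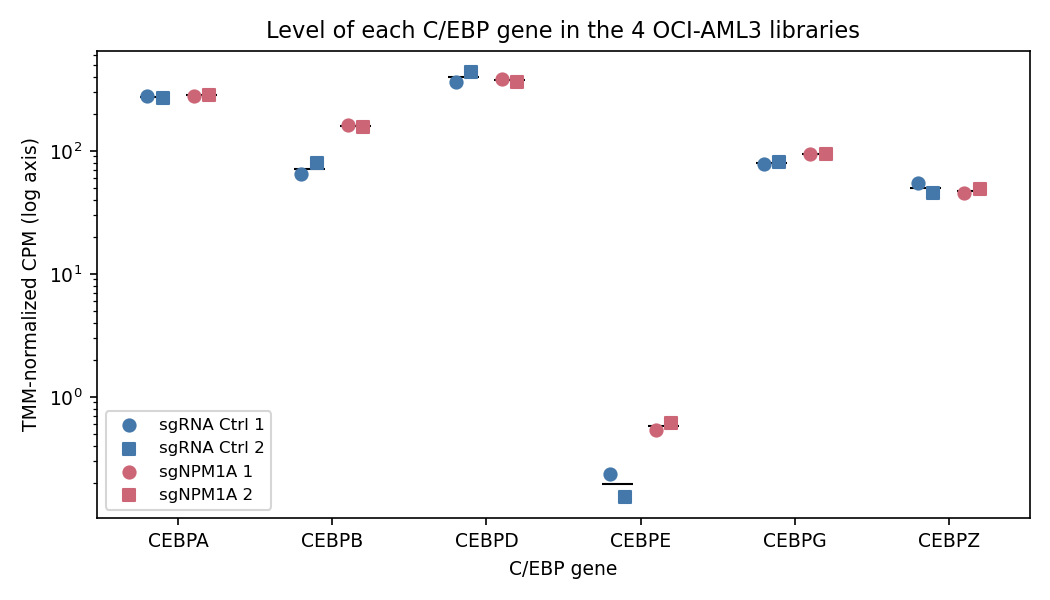
TMM-normalized CPM (log axis) of each C/EBP gene, with 1 point per library (circle: replicate 1; square: replicate 2; blue: sgRNA Ctrl; red: sgNPM1A) and a bar at the mean of each condition. CEBPB stood at 64.6 and 78.9 CPM in sgRNA Ctrl and at 163 and 157 CPM in sgNPM1A, CEBPE was below 1 CPM throughout, and the points of CEBPA, CEBPD and CEBPZ overlapped between conditions.

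**Figure D2:**
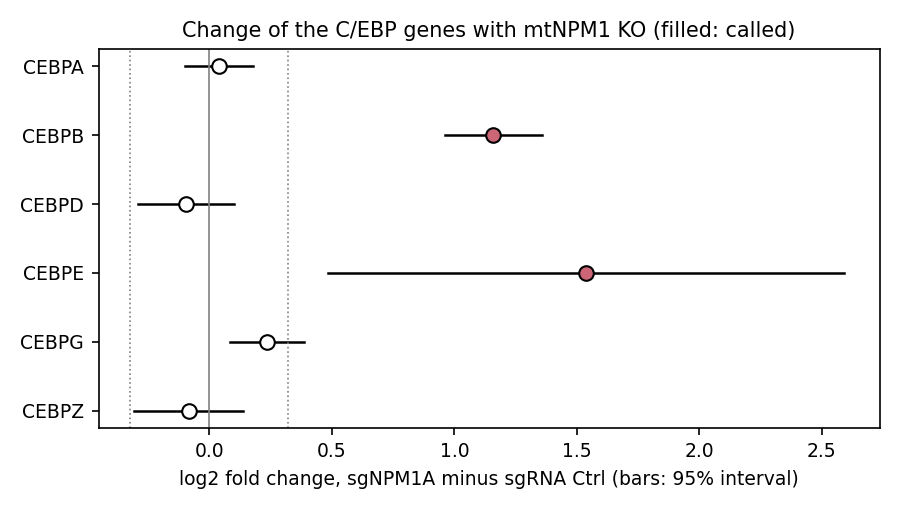
log2 fold-change of each C/EBP gene (sgNPM1A minus sgRNA Ctrl, 2 libraries each) with its 95% interval, where dotted lines mark the fold threshold of 0.32 on the log2 scale and filled points were called. The interval of CEBPE (0.49 to 2.59) is far wider than that of CEBPB (0.96 to 1.36), and the intervals of CEBPA, CEBPD and CEBPZ cross 0.

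To set the members against each other, CPM were divided by the length of the union of annotated exons, since longer transcripts give more reads. On this scale CEBPD was highest at a mean of 308.5 CPM per kb over the 4 libraries, followed by CEBPA at 107, CEBPB at 63.1, CEBPG at 21.4 and CEBPZ at 13.9 CPM per kb. The percentiles of these levels among tested genes were 99.4 for CEBPD, 97.8 for CEBPA, 95.8 for CEBPB, 86.1 for CEBPG and 79.3 for CEBPZ. The order of the 6 genes was the same in every library, and the range of each gene over the 4 libraries did not touch that of its neighbour in the order.

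The bZIP members summed to 450.1 and 516.3 CPM per kb in sgRNA Ctrl and to 526.5 and 508.6 CPM per kb in sgNPM1A. Of this sum CEBPB made up 7.81% and 8.31% in sgRNA Ctrl and 16.8% in each of the sgNPM1A libraries. The share of CEBPB was thus higher in both sgNPM1A libraries, whereas the share of CEBPD was lower, at 64.0% and 67.7% in sgRNA Ctrl and 58.3% and 57.0% in sgNPM1A. CEBPA held 23.9% and 20.1% in sgRNA Ctrl and 20.4% and 21.6% in sgNPM1A, which overlap. CEBPG held between 3.89% and 4.57%, and CEBPE at most 0.0682%. A share changes when any member changes, and the shares were not tested.

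**Figure D3:**
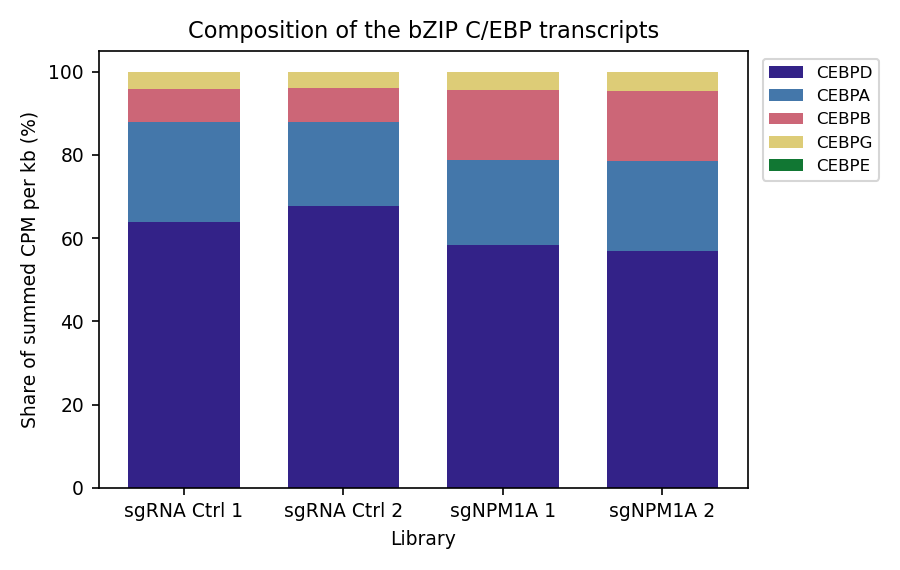
Share of each bZIP C/EBP gene in their summed CPM per kb (%), with 1 stacked bar per library. CEBPB widened from 7.81% and 8.31% in sgRNA Ctrl to 16.8% in both sgNPM1A libraries, CEBPD kept the largest share in all 4, and CEBPE (at most 0.0682%) is too thin to see.

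Ratios of counts within a library need no scaling between libraries. CEBPB gave 0.231 and 0.292 counts per CEBPA count in sgRNA Ctrl and 0.583 and 0.552 in sgNPM1A. Against CEBPD the ratio was 0.179 and 0.180 in sgRNA Ctrl and 0.424 and 0.434 in sgNPM1A. CEBPB and CEBPD differed between the control libraries in the same direction, so that their ratio was closer between replicates than either level. Against CEBPG, CEBPB went from 0.829 and 0.968 to 1.75 and 1.67. The ratio of CEBPD to CEBPA overlapped, at 1.29 and 1.62 in sgRNA Ctrl and 1.37 and 1.27 in sgNPM1A.

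CEBPA and CEBPG are 71.2 kb apart on chromosome 19, and the noncoding transcript CEBPA-DT starts 286 bases from CEBPA on the other strand, beyond the window printed above. CEBPA-DT had 420 and 450 counts in sgRNA Ctrl and 795 and 771 in sgNPM1A. It was called higher at a log2 fold-change of 0.73 ± 0.09 (SE, adjusted p = 0.000144), while CEBPA itself was not called. There were 0.0590 and 0.0643 CEBPA-DT counts per CEBPA count in sgRNA Ctrl and 0.102 and 0.0974 in sgNPM1A. On the other side of CEBPA, the nearest tested gene was SLC7A10, an amino acid transporter, at a log2 fold-change of 0.59 ± 0.31 (SE, adjusted p = 0.188). LRP3, at 91.1 kb, was called higher (0.68 ± 0.07, adjusted p = 3.9e-05) and is named because of its value. PEPD, a peptidase gene 4264 bases downstream of CEBPG, was at 0.28 ± 0.09 (adjusted p = 0.0417), below the fold threshold.

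CEBPB-AS1 lies antisense to CEBPB and overlaps it. It had 57 and 96 counts in sgRNA Ctrl and 54 and 55 in sgNPM1A, with no call (log2 fold-change -0.60 ± 0.25, adjusted p = 0.104). The antisense gene gave 0.0470 counts per CEBPB count at most. PEDS1 upstream was at -0.15 ± 0.10 (adjusted p = 0.296), and the noncoding PELATON, 74.8 kb downstream with 8 and 2 counts in sgRNA Ctrl and 13 and 16 in sgNPM1A, was at 1.40 ± 0.57 (adjusted p = 0.0959). Within 100 kb of CEBPB, 4 genes were tested and 0 were called, beside 20.8% of all tested genes. The counting's strand setting is not given in the sources used here. Of all 50-base words of CEBPB exons, 10.3% were shared with CEBPB-AS1 on the opposite strand and 0.112% with CEBPD on the same strand. For CEBPA 37.6% of words were shared with antisense genes, which had 0 counts in every library.

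Beside CEBPD, neither SPIDR (607 bases downstream, -0.13 ± 0.08, adjusted p = 0.250) nor PRKDC (-0.11 ± 0.07, adjusted p = 0.270), both genes of DNA repair, was called. Next to CEBPE, the transporter gene SLC7A8 was at -0.07 and C14orf119 at 0.11, without a call. CDH24, a cadherin gene 59.8 kb downstream of CEBPE, had 1938 and 2077 counts in sgRNA Ctrl and 438 and 257 in sgNPM1A. Its log2 fold-change was -2.65 ± 0.17 (adjusted p = 1.03e-06), and the proteasome gene PSMB5 was also called lower (-0.32 ± 0.07, adjusted p = 0.00508). Both are named because of their values. CEBPZOS, which overlaps CEBPZ and encodes a mitochondrial protein, was at 0.31 ± 0.09 (adjusted p = 0.0293), under the fold threshold. Its counts were 0.529 and 0.753 of those of CEBPZ in sgRNA Ctrl and 0.876 and 0.781 in sgNPM1A, and 11.2% of the 50-base words of CEBPZ were shared with genes on the opposite strand, CEBPZOS among them, so that reads of this pair may not be told apart. NDUFAF7, 62 bases from CEBPZ, was at 0.23 ± 0.11 (adjusted p = 0.148), and EIF2AK2, the kinase PKR, fell by 0.57 ± 0.09 (adjusted p = 0.000815).

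**Figure D4:**
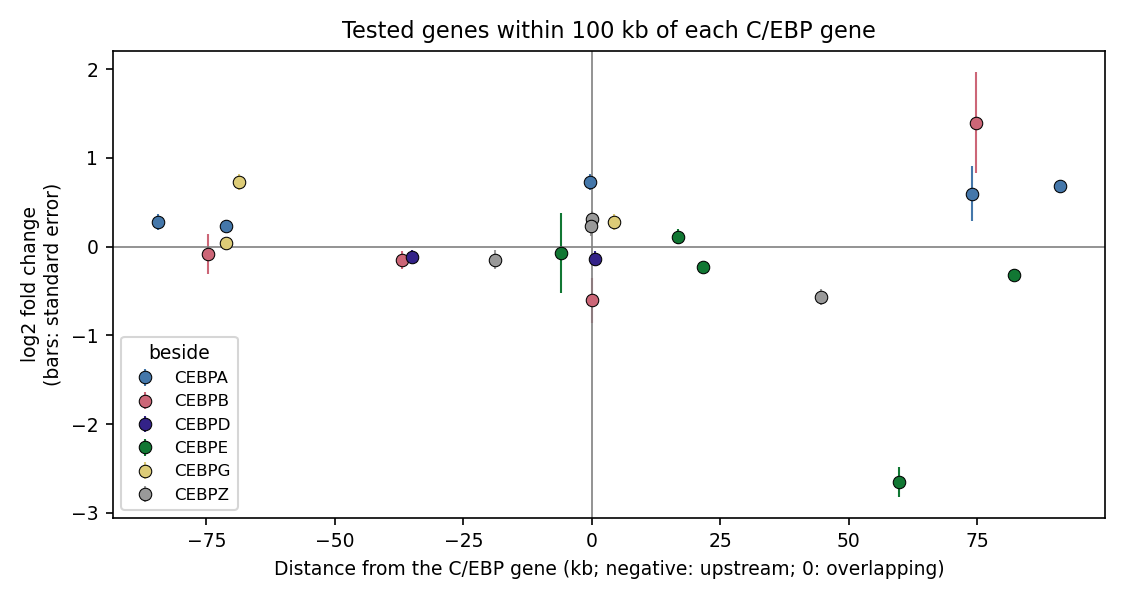
log2 fold-change (sgNPM1A minus sgRNA Ctrl, bars: SE) of every tested gene within 100 kb of a C/EBP gene against its distance in kb (negative: upstream). Genes in reach of both CEBPA and CEBPG appear for each, CEBPA-DT lies at 0.73 beside CEBPA, and the lowest point is CDH24 at -2.65.

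By likeness of the centred log2 CPM over the 4 libraries, among 8856 genes that averaged 10 CPM or more, CITED4 (distance 0.0666, log2 fold-change 1.11) and TNFAIP8 (distance 0.0753, log2 fold-change 1.22) were nearest to CEBPB. CITED4 encodes a transcriptional co-activator, with 67.8 and 86.1 CPM in sgRNA Ctrl and 167 and 165 CPM in sgNPM1A. ZFP92 (distance 0.0733, log2 fold-change 1.23) and WLS (distance 0.119, log2 fold-change 1.31) were nearest to CEBPE. The log2 values were taken after adding a prior count of 2, which draws a gene with few counts toward no change. The match to CEBPE, itself at 1.54 near the floor, is therefore to a reduced profile. With 4 libraries in 2 conditions, nearness is mostly the size of the change.

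Among 12 bZIP dimer partners and related factors, 11 were tested, with 1 called higher and 1 lower, at a median of -0.06. The called share of 18.2% was near the 20.8% of all tested genes. DBP, a circadian PAR bZIP factor, rose (14.8 and 15.5 CPM in sgRNA Ctrl, 24.1 and 22.4 CPM in sgNPM1A, log2 fold-change 0.62 ± 0.10, adjusted p = 0.000772). BATF2, an interferon-responsive factor, fell (log2 fold-change -1.24 ± 0.18, adjusted p = 0.000506). ATF4, the stress partner of CEBPG and CEBPB, was at -0.06 ± 0.10 (adjusted p = 0.712), and DDIT3, known as CHOP, was at 0.16 ± 0.15 (adjusted p = 0.488).

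Of 11 regulators that act on C/EBP protein or its translation, all were tested, 0 were called higher and 2 lower, at a median of 0.00. This called share of 18.2% was near the 20.8% of all tested genes, so no change of the list was read from it. In the count of 0, 1 gene was higher at an unadjusted p under 0.05 and 0 were called higher by DESeq2 or limma. That gene was RPS6KA1, which encodes the kinase RSK1 that acts on CEBPB, at 0.31 ± 0.07 (adjusted p = 0.00586), just below the fold threshold. The called genes were the pseudokinases that direct CEBPA protein to degradation by COP1. TRIB2 had 43.9 and 45.3 CPM in sgRNA Ctrl and 28.02 and 25.89 CPM in sgNPM1A (log2 fold-change -0.72 ± 0.08, adjusted p = 8.18e-05). TRIB1 had 31.5 and 34.8 CPM in sgRNA Ctrl and 26.5 and 25.1 CPM in sgNPM1A (-0.36 ± 0.09, adjusted p = 0.0125), and its call was lost without replicate 2 of sgRNA Ctrl or replicate 2 of sgNPM1A. Protein was not measured in these files.

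Of 15 transcription factors that act beside C/EBP in myeloid cells, 14 were tested, 5 were called higher and 2 lower, at a median of 0.21. The called share was 50%, beside 20.8% of all tested genes, in a list chosen with earlier results of these data known. SPI1, which encodes PU.1, had 452 and 495 CPM in sgRNA Ctrl and 676 and 643 CPM in sgNPM1A (log2 fold-change 0.48 ± 0.07, adjusted p = 0.000552). IRF8 rose by 0.80 ± 0.07 (adjusted p = 1.08e-05), and KLF4 by 0.91 ± 0.12 (adjusted p = 0.000224). The called genes went both ways, so no direction of a lineage was read from this list. ID1, an inhibitor of helix-loop-helix factors, was among the genes called lower (-0.41 ± 0.08, adjusted p = 0.0033), and its call was lost without replicate 2 of sgNPM1A.

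The progenitor and primary granule genes that are textbook targets of CEBPA were higher with mtNPM1 KO, while CEBPA itself was not called. All 9 tested of 10 listed genes were called higher, beside 10.5% of all tested genes, at a median of 1.22. None was called lower, with 0 lower at an unadjusted p under 0.05 and 0 called lower by DESeq2 or limma. The list was chosen with earlier results of these data known, so this count is a description only. LYZ, lysozyme, had 271 and 215 CPM in sgRNA Ctrl and 2643 and 3367 CPM in sgNPM1A (log2 fold-change 3.63 ± 0.13, adjusted p = 3.94e-08). PRTN3, proteinase 3, rose by 2.21 ± 0.07 (adjusted p = 2.58e-08), and MPO, myeloperoxidase, rose by 1.77 ± 0.15 (adjusted p = 7.52e-06) from only 71 and 84 counts. CSF3R, the G-CSF receptor and a direct CEBPA target, had 88.0 and 92.2 CPM in sgRNA Ctrl and 234 and 243 CPM in sgNPM1A (1.40 ± 0.07, adjusted p = 1.35e-07). With limma 8 of the 9 were called, and 8 to 9 when each library was left out. AZU1 fell below the threshold with limma, without replicate 1 of sgRNA Ctrl and without replicate 1 of sgNPM1A, and IL6R without replicate 2 of sgRNA Ctrl. The remaining gene of the list, CSF2RA, had 0 counts in every library. The count data hold 45 Y pseudoautosomal copies of genes. Whether the 0 of CSF2RA reflects how reads of such duplicated genes were counted was not tested, so it is not read as silence.

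Secondary and tertiary granule genes, textbook targets of CEBPE, were mostly silent. Only 5 of 13 passed the filter, of which 1 was called higher and 3 lower, at a median of -0.63. Of these 5 genes 80% were called, beside 20.8% of all tested genes. LTF, CAMP and LCN2, which define the secondary granule, had at most 5 counts in any library, and 2 genes of the list instead of 1 were called higher when no filter was used. BPI, which is on the list although it is a protein of the primary granule, had 0 counts in both sgRNA Ctrl libraries and 6 and 7 in sgNPM1A. MMP9, gelatinase, had 111 and 115 CPM in sgRNA Ctrl and 47.6 and 61.1 CPM in sgNPM1A (log2 fold-change -1.05 ± 0.10, adjusted p = 2.41e-05). MMP8 fell by 1.53 ± 0.25 (adjusted p = 0.00107), and CYBB, the NADPH oxidase subunit, by 0.34 ± 0.07 (adjusted p = 0.00581). CHI3L1, a chitinase-like protein, rose by 2.48 ± 0.08 (adjusted p = 2.58e-08), against the direction of the other called genes.

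Acute-phase and inflammatory genes tied to CEBPB and CEBPD went both ways, with 3 of the 11 tested called higher and 3 lower, at a median of 0.01. In either direction 54.5% were called, beside 20.8% of all tested genes. The called rises were the calprotectin genes and their relative. S100A9 had 61.7 and 73.8 CPM in sgRNA Ctrl and 410 and 482 CPM in sgNPM1A (log2 fold-change 2.72 ± 0.10, adjusted p = 3.94e-08). S100A8 rose by 2.57 ± 0.10 (adjusted p = 4.80e-08) and S100A12 by 2.26 ± 0.29 (adjusted p = 0.000189). The cytokine gene IL1B fell, from 56.0 and 61.6 CPM to 22.7 and 20.4 CPM (-1.45 ± 0.09, adjusted p = 9.00e-07). TNF was lower by a log2 fold-change of -0.54 ± 0.12 (adjusted p = 0.00684) and CCL2 by -0.58 ± 0.16 (adjusted p = 0.0175). CXCL8 was at -0.07 ± 0.09 (adjusted p = 0.607), and IL6 had 0 counts in every library. Without replicate 2 of sgNPM1A only 1 gene of the list was called lower, with TNF and CCL2 lost.

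The genes of the amino acid stress response, which ATF4 drives with CEBPB, CEBPG and DDIT3, did not all move in the same direction. All 16 were tested, 2 were called higher and 2 lower, at a median of -0.12. The called share was 25%, beside 20.8% of all tested genes. Only 4 of the 16 had a positive log2 fold-change. By the adjusted p under 0.05 alone, without the fold threshold, 2 were higher and 5 lower. SLC7A11, the cystine transporter, had 8.73 and 12.9 CPM in sgRNA Ctrl and 20.6 and 20.4 CPM in sgNPM1A (log2 fold-change 0.93 ± 0.15, adjusted p = 0.000958). VLDLR was at 0.36 ± 0.11 (adjusted p = 0.0389). CHAC1, a glutathione-degrading enzyme, was at -0.97 ± 0.27 (adjusted p = 0.0203), with control libraries of 7.55 and 14.98 CPM that differed from each other by about as much. PHGDH, of serine synthesis, was at -0.45 ± 0.13 (adjusted p = 0.0256). CHAC1 and PHGDH were not called without replicate 2 of sgRNA Ctrl (-0.39 and -0.17), and 0 genes of the list were called lower there. With DESeq2 1 gene was called higher and 1 lower, and when each library was left out from 1 to 3 were called higher and from 0 to 3 lower. VLDLR lost its call with DESeq2, with library size only, with the replicate block, and without replicate 1 of sgRNA Ctrl or either sgNPM1A library.

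The 7 tested genes listed as partners of CEBPZ, of which METTL3 and METTL14 encode an RNA methyltransferase and the others act in ribosome assembly, were at a median of -0.05, and 0 were called by edgeR, DESeq2 or limma. At an unadjusted p under 0.05, 1 of them was lower and 0 were higher. Over all 100 genes of these lists, 84 were tested, 21 were called higher, 13 lower and 50 not called. That is 40.5% called, beside the 20.8% of all tested genes called in either direction. The lists were chosen with earlier results of these data known, so this share is a description only.

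**Figure D5:**
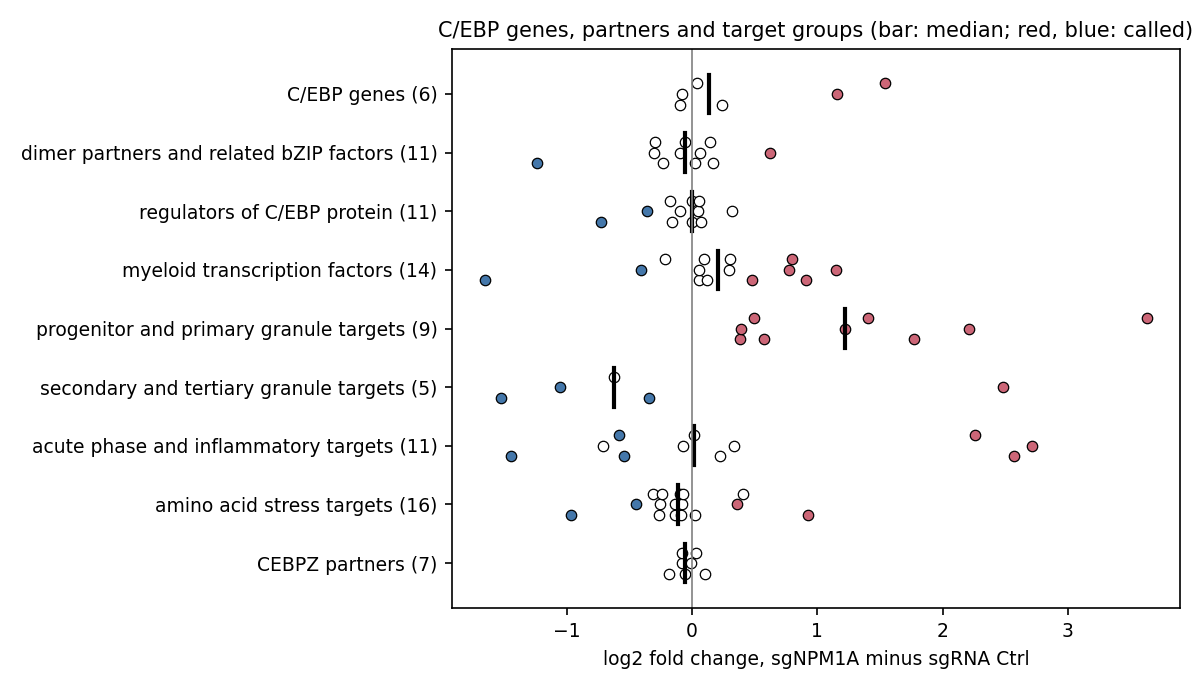
log2 fold-change of each tested gene (sgNPM1A minus sgRNA Ctrl) by list, with the number tested in brackets, a bar at the median, red points called higher and blue points called lower. The progenitor and primary granule genes lie right of 0 at a median of 1.22, the secondary and tertiary granule genes have a median of -0.63, and the CEBPZ partners cluster near 0.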

How the data were processed

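RNA-Seq of OCI-AML3 cells given sgRNA Ctrl or sgNPM1A by transfection was used, with 2 libraries per condition harvested after 72 hours. The legend in the paper calls them biological replicates, and the labels do not tie the numbers of one condition to those of the other. The medium is alpha-MEM in the labels and RPMI in the paper. The authors mapped the reads with STAR on hg38 and deposited a raw count for each Ensembl gene. The counting program, annotation and strand setting are not given in the sources used here. Spike-ins were added according to the paper, and 0 rows carry an ERCC name. The ChIP-Seq experiments were not analysed here.

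Counts were filtered with filterByExpr (minimum count 10), normalized by TMM and compared with the two-sided quasi-likelihood F test of edgeR 4.0.16 in R 4.3.3, with Benjamini-Hochberg adjustment over 15718 genes. The floor was 3 counts, for counting error only. Exon lengths come from GENCODE, positions and sequences from RefSeq on GRCh38.p14. Symbols were found for 55603 of 58037 identifiers. The fits were tested on simulated data.

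The C/EBP genes and the gene lists were chosen with earlier results of these data known. Named genes are the 6 members, NPM1, up to 4 called genes per list with the smallest adjusted p (all where 3 or fewer were called), the nearest tested gene on either side of each member and any that overlaps it, and for each called member the 2 most alike genes. LRP3, CDH24, PSMB5, AZU1, IL6R, CSF2RA, ATF4, DDIT3, RPS6KA1, LTF, CAMP, LCN2, BPI, CXCL8, IL6, TNF, CCL2, ID1, HOXA9, MEIS1, ANPEP, FUT4, METTL3 and METTL14, where outside this rule, and COL1A2 and EPCAM were named after their values were seen. A gene covered by the rule is not reported here. Alternatives were DESeq2 1.42.0, limma 3.58.1 on quantile-normalized log2 CPM, RLE factors, library size only, no filter, at least 10 counts in every library, no fold threshold, a fold threshold of 2, a replicate block and leaving out each library in turn.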

Additional observations from a re-analysis of the deposited data

How the results depend on the processing

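With 2 libraries per condition, the spread of a single gene is known poorly, and a leave-one-out fit assumes that the lone library varies like the others. CEBPB was called under all 14 alternatives, at log2 fold-changes from 1.02 to 1.31. CEBPE was at 1.56 with DESeq2 (adjusted p = 0.234) and between 1.27 and 1.87 when a library was left out, always without a call; with at least 10 counts in every library it could not be tested. The members called higher were therefore 1 with DESeq2, 1 with at least 10 counts in every library, and 1 to 1 when each library was left out. CEBPG passed at 0.23 without a fold threshold. CEBPA turned to -0.0016 with library size only, a scaling that moved the median of all genes from 0.00 to -0.04. When each library was left out, CEBPD ran from -0.23 to 0.053, CEBPZ from -0.22 to 0.070 and SLC7A8 from -0.89 to 0.45, turning without replicate 2 of sgRNA Ctrl, replicate 1 of sgRNA Ctrl and replicate 1 of sgNPM1A; the cause was not tested. At a fold threshold of 2, 498 genes were called higher and 502 lower, and of the listed genes 10 were higher and 5 lower, since fewer pass a larger fold. Of 51 single genes outside the family, 23 lost a call under at least 1 alternative, the fold threshold of 2 included, and 11 times a gene not called gained a call, as NPM1 did with limma (-0.42).

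The replicate numbers do not pair the libraries by any label, and deviations of same-numbered libraries correlated at -0.130, and at -0.523 over the 8856 genes above 10 CPM. With the replicate block, 1637 genes were called higher and 1604 lower, 2 members were called, and VLDLR lost its call. With the crossed pairing, added after the data were examined, 1955 genes were called higher and 1918 lower.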
